A study of Mus musculus with 8 samples.

Results

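Tenocyte-like cells of the mouse periosteum, the connective tissue sheath of the bone, were selected from single-cell RNA profiles by the tendon genes they expressed. The rule asked for over 500 but under 8000 detected genes in a cell, under 20% mitochondrial RNA, at least 0.5% of its RNA from Col1a1, Col1a2, Col3a1 and Dcn together, no Cdh5 and fewer than 5 molecules of Rgs5, and at least 5 molecules of Tnmd, Chad, Scx and Mkx together. Cells with 20 or more molecules of the osteoblast genes Bglap, Bglap2 and Ibsp, or 10 or more of the cartilage genes Col2a1, Acan, Cytl1 and Snorc, were set apart. In all, 242 of 12253 cells qualified, out of 1079 stromal cells (cells that met the collagen, Cdh5 and Rgs5 limits). The cells came from the left femurs and tibias of C57BL/6J male mice, 16 weeks old, fed either normal diet chow (ND) or high fat diet chow (HFD). The labels list 4 replicates per diet, but the cells of a diet form 1 pooled library in which no cell is assigned to a replicate. No test between diets was therefore possible, and every interval below covers counting error only. The ND library held 48558889 molecules in 6314 barcodes, of which 6029 were kept and 94 were tenocyte-like, with a median of 11000.5 molecules per tenocyte-like cell. The HFD library held 49940976 molecules in 6636 barcodes, of which 6224 were kept and 148 were tenocyte-like, with a median of 10027 molecules. A molecule is 1 unique molecular identifier (UMI), and levels are UMIs per 1000000 UMIs (UPM) of the cells pooled. They are not scaled to gene length, because only the 3′ end of each RNA was read. Of all barcodes, 15 occurred in both libraries, and 0 of them were tenocyte-like.

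Tenocytes are the fibroblasts of tendons and ligaments, which insert into bone through the periosteum. They lay down parallel type I collagen fibrils, whose diameter and spacing are set by small leucine-rich proteoglycans and by glycoproteins such as the thrombospondins. Scleraxis (Scx) and Mohawk (Mkx) are transcription factors of the tendon lineage, and tenomodulin (Tnmd) is a membrane glycoprotein that marks mature tendon cells. Chondroadherin (Chad) is a leucine-rich matrix protein of cartilage, bone and tendon. Mfap4 encodes a microfibril-associated glycoprotein, and Nppc encodes C-type natriuretic peptide, a growth signal best known from cartilage.

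Chad made up most of the RNA on which the cells were chosen. It gave 2779 of the UMIs in the 94 ND cells and 4373 in the 148 HFD cells, 83.4% and 75.4% of the sum over the 4 genes. Tnmd had 370 UMIs in 54 ND cells and 990 UMIs in 79 HFD cells. Scx had 141 UMIs in 47 ND cells and 355 UMIs in 89 HFD cells. Mkx was the scarcest of the 4, with 42 UMIs in 31 ND cells and 84 UMIs in 54 HFD cells. At least 2 of the 4 genes were detected in 76 ND cells (80.9%, 95% Clopper-Pearson interval 71.4 to 88.2) and in 123 HFD cells (83.1%, 76.1 to 88.8). None of Tnmd, Scx and Mkx was detected in 15 ND and 19 HFD cells, which were members through Chad alone. These values are what chose the cells and are given as a description.

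Some of the markers were not restricted to the tenocyte-like cells. The selection sums Tnmd, Scx, Chad and Mkx, which fixes their gap to the other fibroblast-like cells, so their levels are a description. Tnmd was at 316 UPM in ND (95% Poisson interval 285 to 350) and 613 in HFD (575 to 652), against 10.7 and 8.69 in the other fibroblast-like cells and 5.72 and 7.29 in the osteoblast-like cells. Scx was at 120 and 219.7 UPM, and it stood at 87.3 and 117 in the osteoblast-like cells. Chad was at 2375 and 2706 UPM, and it stood at 1753 and 735 in the osteoblast-like cells and at 9.19 and 10.3 in the other fibroblast-like cells. In the chondrocyte-like class, which held only 3 ND and 6 HFD cells, Chad was higher than in the tenocyte-like cells, at 7285 and 4416 UPM. Mfap4 and Nppc, which the rule does not name, were at 640.0 and 822 UPM (Mfap4) and at 261 and 170.2 (Nppc), against 32.7 and 104.0 (Mfap4) and 15.1 and 20.8 (Nppc) in the other fibroblast-like cells. In the osteoblast-like cells they were at 67.3 and 111 (Mfap4) and at 90.2 and 39.7 (Nppc). Mfap4 was detected in 71 ND and 110 HFD members, and Nppc in only 36 and 32. After each cell was thinned to 2000 UMIs, which left out 1 shallower HFD member, Tnmd was detected in 38.3% of ND and 36.7% of HFD members, against 57.4% and 53.4% before thinning. In B cell-like cells, which do not make tendon RNA and stand for background, the thinned share was 0 of 1588 in ND (95% Clopper-Pearson upper bound 0.232%) and 3 of 1503 (0.200%) in HFD. The unthinned shares in B cell-like cells were 0.0618% and 0.260%, at a median of 3964.5 and 3863 UMIs per cell.

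**Figure D1:**
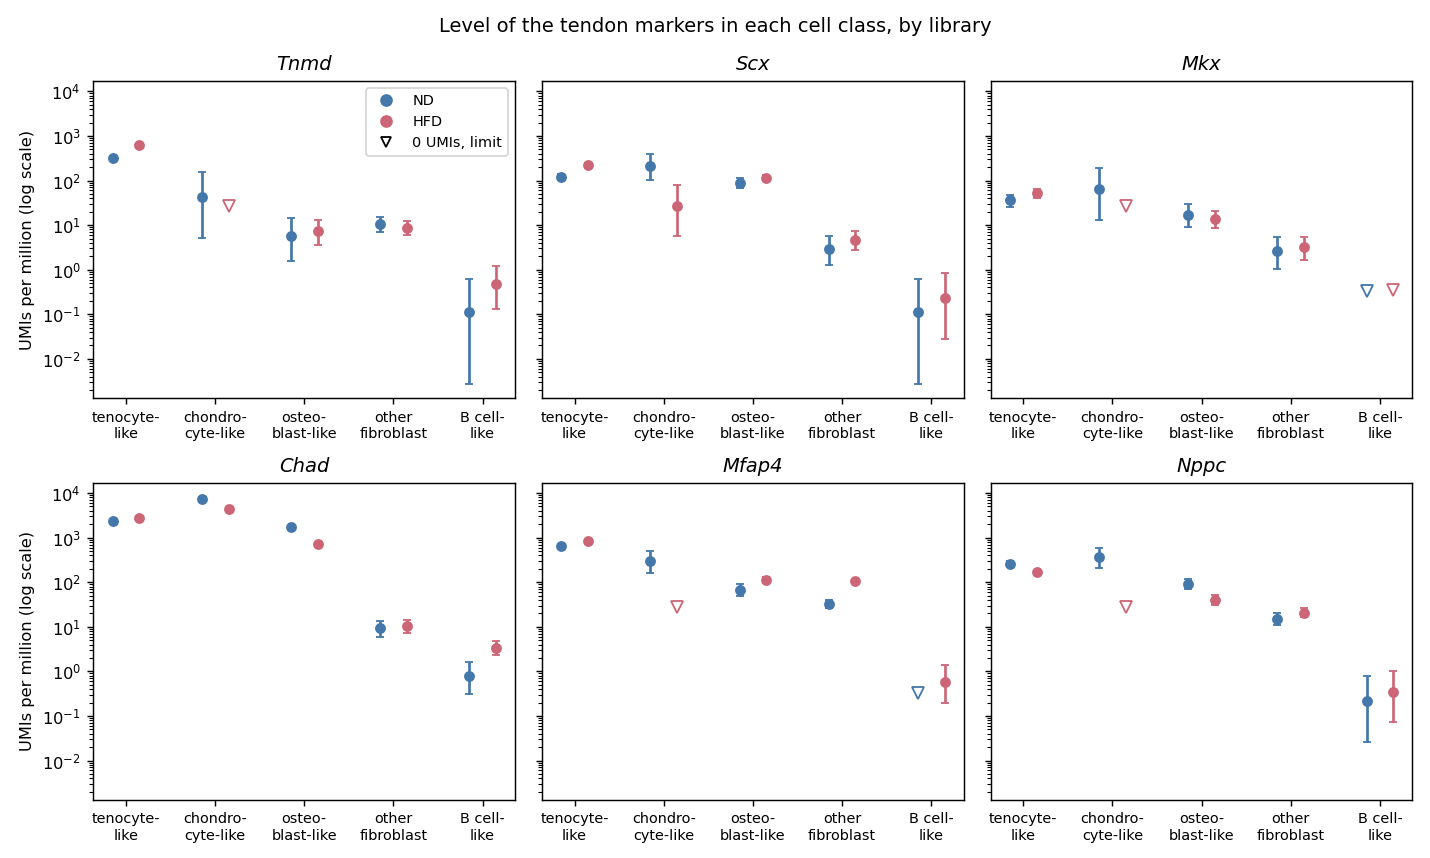
Levels of the 6 tendon markers (UPM, log scale) in tenocyte-like, chondrocyte-like, osteoblast-like, other fibroblast-like and B cell-like cells of the ND (blue) and HFD (red) libraries. Points are pooled levels, bars are 95% Poisson intervals, and open triangles stand at 3 UMIs, the limit that a count of 0 allows. Chad and Scx, unlike Tnmd, were also high in osteoblast-like cells.

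The limit of 5 UMIs cut through a continuous range. Of the stromal cells outside the osteoblast-like and chondrocyte-like classes, 5 ND and 5 HFD cells had exactly 4 UMIs of the 4 genes and stayed outside, while 7 ND and 8 HFD cells had exactly 5 and were members. Fmod, which encodes the collagen-binding proteoglycan fibromodulin, was at 952 UPM just outside and 1770.0 just inside the limit in ND, and at 612 and 881 in HFD. Thbs4, encoding the tendon glycoprotein thrombospondin 4, was at 1367 and 1749 in ND and at 319.6 and 1175 in HFD. Mfap4 was at 276 just outside and 104 just inside in ND and at 586 and 494 in HFD. Comp, cartilage oligomeric matrix protein, was at 1812 and 1667 in ND and at 932 and 1775 in HFD. With 5 to 8 cells on each side, the 95% Poisson intervals of the sides overlapped for Mfap4 in both libraries, for Thbs4 and Comp in ND and for Fmod in HFD. In addition, 18 of the 62 ND and 32 of the 131 HFD osteoblast-like cells carried at least 5 UMIs of the tendon genes, and they were kept out only by their osteocalcin and bone sialoprotein RNA.

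Members differed in how they reached the limit. With 5 UMIs as the limit, 41 ND cells (43.6%) and 64 HFD cells (43.2%) reached it on Tnmd, Scx and Mkx alone, and the other 53 ND and 84 HFD cells needed Chad and are called Chad-led here. The median depth was similar in both kinds, at 10999 and 11010 UMIs in ND and 10816 and 9684 in HFD. Chad was itself detected in most cells of both kinds, and Tnmd and Chad occurred together in 47 ND and 66 HFD members. Across cells thinned to 2000 UMIs, Spearman's rho between Tnmd and Chad was -0.11 over 94 ND and -0.27 over 147 HFD cells, where the 4-gene sum that chose the cells uses both genes. Between Tnmd and Thbs4 it was 0.40 and 0.57, and between Chad and Comp 0.34 and 0.32. Cells of 1 library share its RNA capture and background, so these are descriptions only.

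**Figure D2:**
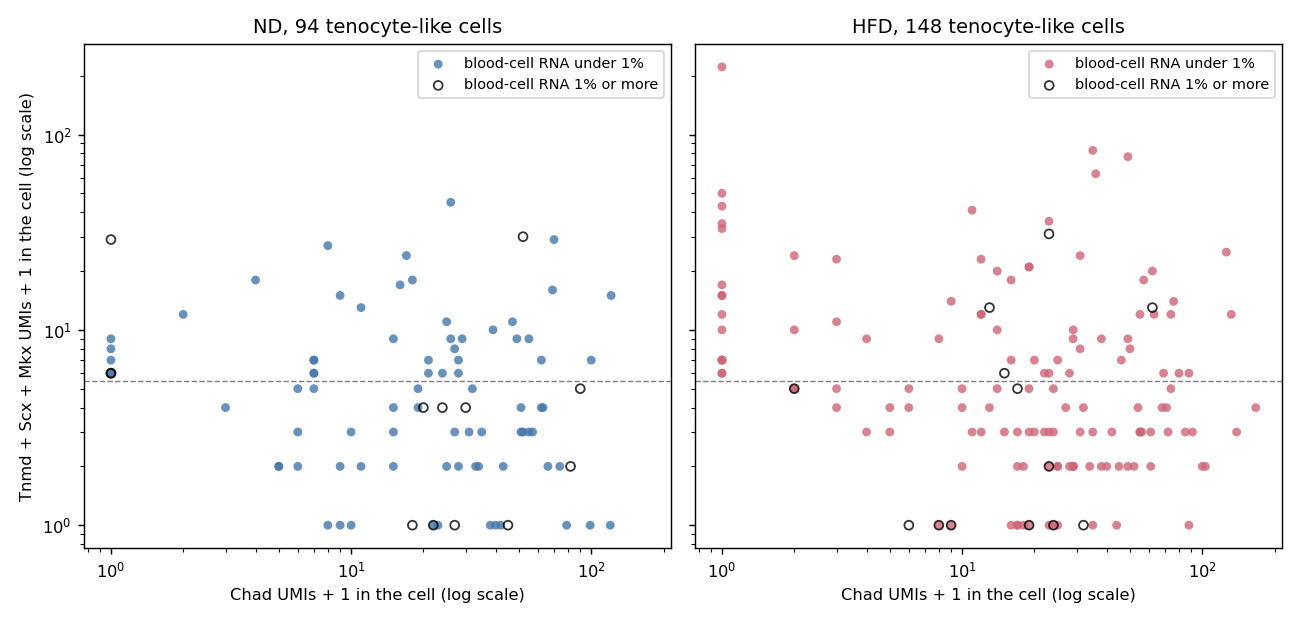
Each point is 1 tenocyte-like cell of the ND (left, 94 cells) or HFD (right, 148 cells) library, with its Chad UMIs plus 1 on the horizontal axis and its Tnmd, Scx and Mkx UMIs plus 1 on the vertical axis (both log scales). The dashed line separates cells with 5 or more Tnmd, Scx and Mkx UMIs from Chad-led cells, and open circles are cells with 1% or more of their UMIs from blood-cell markers. Most cells carry Chad, and cells rich in Tnmd, Scx and Mkx occur at Chad counts from 0 to 120 UMIs in ND and from 0 to 131 in HFD.

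The cells rich in Tnmd, Scx and Mkx held nearly all of the keratocan RNA and had higher levels of Thbs4, Sfrp2 and Fbln7. These genes were chosen after their values were seen, and every gene of these cells counts as used by the selection. Kera, encoding the proteoglycan keratocan, had 70 UMIs in the 41 ND cells rich in the 3 genes and 0 in the 53 Chad-led cells, and 122 and 5 in HFD. One ND cell held 59 of the 70 UMIs. Thbs4 was at 2605 UPM in the ND cells rich in the 3 genes and 559 in the Chad-led cells, and at 2938 and 646 in HFD, log2 ratios of 2.22 and 2.18. Without the members with blood-cell RNA the Thbs4 ratios were 1.56 in ND and 2.18 in HFD. Sfrp2, a secreted Wnt modulator, had log2 ratios of 2.11 and 2.57, and Fbln7, a fibulin, of 4.17 and 2.81. One ND cell held 41 of the 65 Fbln7 UMIs of the ND cells rich in the 3 genes. In the other direction, H19, an imprinted noncoding RNA, was lower in the cells rich in the 3 genes by log2 ratios of -1.57 in ND and -2.12 in HFD, and Igf2, the neighbouring imprinted growth factor, by -1.72 and -1.04. S100b, a calcium-binding protein gene, gave -1.74 and -1.25, and Igfbp5, an IGF-binding protein gene, -1.10 and -1.13. Nppc was mostly in Chad-led cells, at 393 UPM against 99.4 in ND and 239 against 97.9 in HFD. Fmod was also higher in the cells rich in the 3 genes, with log2 ratios of 0.82 and 1.00, and Comp gave 0.50 and 0.17. Other matrix glycoprotein genes went both ways. Angptl7 gave 0.91 and 1.36, Prg4 1.03 and 1.25, Cilp2 0.29 and 0.19 and Mfap4 -0.02 and 0.14. Clu, clusterin, was lower in the cells rich in the 3 genes, at -0.72 and -1.47. Without the members with blood-cell RNA the Clu ratios were -0.03 and -2.66.

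Endothelial and skeletal muscle markers were near 0 in the members, whereas osteoblast and chondrocyte markers were not. Of the 6 endothelial markers, Cdh5 (0 by rule), Emcn and Tie1 had 0 UMIs in both libraries, and the list summed to 6.84 UPM in ND and 8.04 in HFD, with Egfl7 and Kdr the most abundant. Of the 7 skeletal muscle markers, Ckm, Ttn, Myh4, Pax7 and Myf5 had 0 UMIs, and the list summed to 4.27 and 2.48 UPM. Of the 10 chondrocyte markers, Col9a1 had 0 UMIs in both libraries and Col2a1 and Col9a2 had 0 in ND, and Sox9, also a gene of tendon attachment cells, was the most abundant at 85.4 and 71.2 UPM. The chondrocyte list summed to 173 and 120 UPM, against 93.4 and 93.4 in the other fibroblast-like cells. Sox9 was no higher in the members than in those cells, where it was at 87.1 and 81.3. Cnmd, chondromodulin, also on the list, was at 70.1 and 11.8 UPM in the members against 0.735 and 0.526. Of the 8 osteoblast markers, Dmp1 and Ifitm5 had 0 UMIs, and the list summed to 361 and 294 UPM, led by Spp1, against 95.2 and 155 in the other fibroblast-like cells. The rule caps osteocalcin, bone sialoprotein and cartilage RNA in the members, so the osteoblast and chondrocyte sums are partly set by it and are a description. The part of these RNAs in the results below was not tested. Mural markers summed to 29.1 and 55.7 UPM, with Des at 0 in both libraries and Acta2 the most abundant.

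Blood-cell RNA was unevenly spread over the members, and this bears on the diet comparison below. The 7 neutrophil markers summed to 38568 UPM in the ND members and 10974 in the HFD members, with S100a9 the most abundant and all 7 detected. The median member carried 0.0917% of its UMIs from them in ND and 0.0963% in HFD, and 1 cell held 27.7% of the list in ND and 35.4% in HFD. The 6 macrophage markers summed to 1399 and 227 UPM, nearly all Lyz2, with Adgre1 at 0 in HFD. The 5 erythroid markers summed to 61.5 and 1345 UPM, led by Hbb-bs, and 1 HFD cell held 90.5% of them. B cell markers summed to 184 and 259.9 UPM (Vpreb3 and Ighm the most abundant), and T cell markers to 5.13 and 14.2 (Cd3d), with Cd3e, Trac, Cd8a and Cd4 at 0 in ND. In all, 13 ND and 13 HFD members had at least 1% of their UMIs from these 5 lists. Leaving them out left 81 ND and 135 HFD members, in which the macrophage list still summed to 397 UPM in ND and 62.3 in HFD. Of it, C1qa, a complement gene, had 73 ND UMIs, 72 of them in 1 cell, and 2 HFD UMIs, so that the check did not level macrophage RNA. Whether these RNAs came from attached cells, doublets or free RNA was not tested.

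Compared with the other fibroblast-like cells (247 ND and 388 HFD stromal cells outside the other classes), 221 of 12064 genes with at least 20 UMIs were 4-fold or more higher in both libraries (1.83%), and 196 were 4-fold or more lower in both (1.62%). The 4 genes of the selection are counted among them, and because measured values chose the members, no test was made. Fmod was the most abundant of the proteoglycan genes among the leaders, at 2526 and 2583 UPM against 82.4 and 109, 30.6-fold and 23.7-fold higher. In the osteoblast-like cells Fmod was also abundant, at 904 and 1667 UPM. Ecrg4, which encodes a secreted peptide precursor, was at 4554 and 3192 against 179 and 168 in the other fibroblast-like cells. Angptl7, an angiopoietin-like secreted protein, was at 1159 and 827 against 99.3 and 39.0. Cilp2, a cartilage intermediate layer protein, was at 518 and 357 against 11.8 and 21.1.

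Other leading genes had few UMIs in the other fibroblast-like cells, though some were also found in osteoblast-like cells. Kera had 70 UMIs in ND and 127 in HFD, against 2 and 10 in the other fibroblast-like cells, but it was found in only 3 ND and 10 HFD members. Cnmd, chondromodulin, the closest relative of Tnmd, had 82 and 19 UMIs against 2 and 2. Chodl, a C-type lectin, had 13 and 193 UMIs against 0 and 18, at least 10.1-fold higher in ND when 3 UMIs over the class are taken for the 0. Ptx4, a pentraxin, had 12 and 120 UMIs against 0 and 3, at least 9.30-fold higher in ND by the same floor. Wif1, a secreted Wnt inhibitor, had 130 and 205 UMIs against 1 and 23, and was at 90.2 and 542 UPM in the osteoblast-like cells. The Wnt ligand gene Wnt16 had 218 and 405 UMIs against 45 and 70, and stood at a higher level in osteoblast-like cells (567 and 407 UPM) than in the members (186 and 251). Npy, encoding neuropeptide Y, had 57 and 173 UMIs against 1 and 28, in 9 ND and 10 HFD members. Kcnma1, the subunit of a calcium-activated potassium channel, had 122 and 161 UMIs against 4 and 24, and Gnai1, an inhibitory G protein subunit, 115 and 132 against 26 and 23. The remaining leaders were Fbxo2, Lmcd1, Egfl6, Ankmy1, Shisa2 and the histone genes Hist1h2ap and Hist1h2ae, whose log2 ratios ran from 3.56 to 5.62 over both libraries.

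Of the 10 genes lowest against the other fibroblast-like cells, Has1, Ugdh and Tnfaip6 act in making or binding hyaluronan. Dpt, a collagen-binding matrix protein gene, was at 47.9 and 46.4 UPM against 657 and 629, log2 ratios of -3.77 and -3.75. Has1, a hyaluronan synthase, was at 99.1 and 61.9 against 681 and 619, and Ugdh, which makes its sugar precursor, at 47.9 and 49.5 against 672 and 369.6. Tnfaip6, a hyaluronan-binding protein, was at 70.1 and 39.0 against 615 and 408. Fbn1, fibrillin 1 of elastic microfibrils, was at 138 and 134 against 963 and 1063. The other 5 of the 10 were Clec3b, Ecm1, Ly6c1, Ackr3 and Tppp3, a gene of the tendon sheath, with log2 ratios from -2.74 to -3.48.

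**Figure D3:**
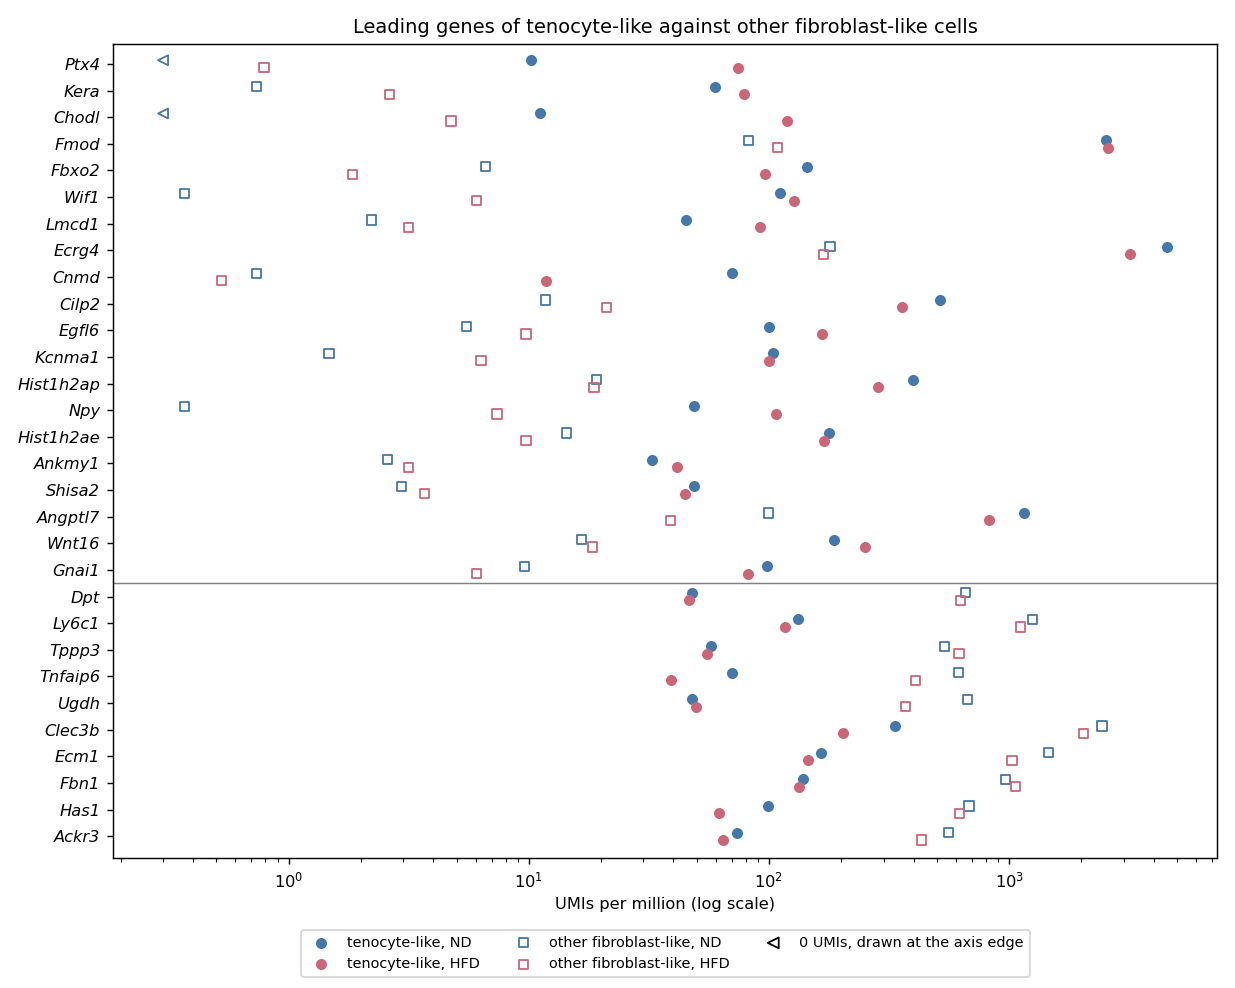
Levels (UPM, log scale) of the 20 genes highest and the 10 genes lowest in tenocyte-like cells (filled circles) against other fibroblast-like cells (open squares), ND in blue and HFD in red, ranked by the smaller of the ratios of the libraries. Open triangles at 0.3 mark 0 UMIs. The circles lie to the right of the squares for every gene above the line and to the left for every gene below it.

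By function, the matrix lists held genes past 4-fold in both directions, to be read beside 1.83% of all genes higher and 1.62% lower in both libraries. Of 20 tendon glycoprotein genes, 4 were higher in both libraries (Thbs4, Cilp2, Angptl7 and Clu, the extracellular chaperone clusterin) and 3 were lower (Tnxb, Prg4 and Ecm1). Of 10 small leucine-rich proteoglycan genes outside the rule with at least 20 UMIs, Fmod and Kera were higher and Podn was lower. Lum, lumican, was below the other fibroblast-like cells, at 332 and 606 UPM against 896 and 1407, while Prelp was above them, at 773 and 835 against 357 and 351. Of 13 collagen genes outside the rule, Col8a1, Col11a1 and Col12a1 were higher and Col5a3 and Col14a1 were lower. Col12a1, a collagen that coats fibrils, was at 595 and 510.5 UPM against 93.4 and 90.6, and Col14a1, its relative, at 82.9 and 94.7 against 534 and 489. Of 15 microfibril and elastic fiber genes, Mfap4 was higher and Fbn1 and Efemp1 were lower. Of 22 genes of collagen processing, 0 were higher and Pcolce2 was lower, and of 13 genes of matrix turnover, 0 were higher and Mmp13 (collagenase 3) was lower, with 0 and 1 UMIs in the members against 62 and 129. The median log2 ratios in ND and HFD were 0.31 and 0.77 for the glycoproteins, 0.92 and 0.98 for the proteoglycans, -0.72 and -0.73 for the collagens, 0.18 and 0.27 for the microfibril genes, 0.07 and -0.07 for collagen processing and -0.79 and -1.24 for matrix turnover, beside 0.08 and 0.08 over all genes.

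The signaling and progenitor lists are set beside the same shares of all genes, 1.83% higher and 1.62% lower. Of 14 progenitor and tendon sheath genes, 6 were 4-fold or more lower in the members in both libraries (Ly6a, Cd34, Dpp4, Pi16, Tppp3 and Cd248) and 0 were higher, at a median log2 ratio of -1.74 in ND and -0.92 in HFD. Pi16, a marker of perivascular and universal fibroblasts, was at 47.0 and 23.5 UPM in the members against 1039 and 972. Of 8 genes of natriuretic peptide signaling, Nppc and Ostn were higher, and Ostn encodes osteocrin, a decoy ligand of the clearance receptor Npr3. Ostn was at 46.1 and 16.1 UPM in the members, below its level in the osteoblast-like cells (575 and 528). The receptor for the Nppc product, Npr2, was at 24.8 and 34.7 UPM in the members and at 12.9 and 21.8 in the other fibroblast-like cells, and Npr3 had 6 and 10 UMIs in the members. Among 13 receptors for nerve and vessel signals, the galanin receptor gene Galr2 was higher and the angiopoietin receptor gene Tek was lower. Galr2 was at 42.7 and 51.4 UPM against 8.09 and 6.84, and at 41.5 and 44.4 in osteoblast-like cells. After thinning it was detected in 8.51% and 6.80% of the members, against 38.3% and 35.8% before thinning, and in 0.189% and 0.133% of the B cell-like cells. Of 15 cell cycle genes, Top2a and Rrm2 were higher, and Top2a had 34 UMIs in 6 ND and 41 UMIs in 8 HFD members, 14 and 24 of them in 1 cell. The cell cycle median was 1.49 and 1.45, but several of these genes were found in few members. Birc5 was in 3 ND and 5 HFD members, with 13 of 24 and 23 of 34 UMIs in 1 cell. Cdk1 was in 2 and 3 members, whereas Ccnd2 was in 73 and 113. None of 6 tendon transcription factor genes outside the rule, 16 TGF-beta and GDF genes, 9 mechanosensing genes, 10 ERK feedback genes, 14 lipid genes and 21 immediate-early genes passed 4-fold in both libraries in either direction. Their medians were 0.77 and 0.58, 0.02 and -0.09, 0.48 and 0.23, -0.03 and 0.18, -0.18 and -0.35, and -0.25 and -0.34, in that order, with ND first. The natriuretic peptide genes had medians of 0.61 and 1.23, and the receptors -0.47 and -0.99.

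The promoters of 3 member genes are shown because scleraxis binds the E-box motif CANNTG, which Chad and Fmod carry 1 time each and Chodl 4 times. RefSeq promoters (GRCm38.p6, the assembly of the build mm10) matched 3 of the 6 markers and 17 of the 20 leading genes. The motif reads the same on both strands, and matches may overlap. In the 250 bases before the start, 11 of the 17 leading genes held it (64.7%) against 66.2% of all 32851 promoters, a share close to that of all promoters. Chad gave 83.4% of the ND UMIs of the 4 selection genes, Fmod is the most abundant proteoglycan leader, and Chodl has the most matches among the leaders, 4, a number reached by 3.84% of all promoters. The motif was found 0 times in the windows of Tnmd, Nppc and Kera, which says only that these letters are not there. Each run reads 5′ to 3′ up to the base before the annotated start, all on the plus strand, with motif matches in capitals: Chad at chr11:94564797-94565046, Fmod at chr1:134037004-134037253 and Chodl at chr16:78930698-78930947.
Chad: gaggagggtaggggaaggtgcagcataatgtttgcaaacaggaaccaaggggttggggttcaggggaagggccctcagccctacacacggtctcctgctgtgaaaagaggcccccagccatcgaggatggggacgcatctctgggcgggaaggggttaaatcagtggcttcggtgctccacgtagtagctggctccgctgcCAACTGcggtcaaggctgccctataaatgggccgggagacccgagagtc
Fmod: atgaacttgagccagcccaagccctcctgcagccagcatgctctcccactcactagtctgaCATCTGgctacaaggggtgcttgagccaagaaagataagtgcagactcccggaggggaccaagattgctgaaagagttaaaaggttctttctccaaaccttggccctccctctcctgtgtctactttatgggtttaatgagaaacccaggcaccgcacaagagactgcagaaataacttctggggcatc
Chodl: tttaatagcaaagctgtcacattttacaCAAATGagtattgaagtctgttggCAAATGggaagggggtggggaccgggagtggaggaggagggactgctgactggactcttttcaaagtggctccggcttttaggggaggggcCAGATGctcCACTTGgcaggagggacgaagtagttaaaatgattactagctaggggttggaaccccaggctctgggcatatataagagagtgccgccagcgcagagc

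The share of tenocyte-like cells among stromal cells differed between the diets by less than its counting error. They were 94 of 406 stromal cells in ND (23.2%, 95% Clopper-Pearson interval 19.1 to 27.6) and 148 of 673 in HFD (22.0%, 18.9 to 25.3). Of all kept cells they were 1.56% and 2.38%, because the HFD library held more stromal cells. The digestion and the recovery of each library can set both shares, and with 1 library per diet neither can be told apart from the diet.

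Among the tendon genes, Tnmd and Scx were higher in the HFD library, Chad and Fmod were nearly level and Nppc was lower. Tnmd, Scx and Chad are genes whose sum chose the members in each library, so their values are a description. The log2 ratio (HFD divided by ND) of Tnmd was 0.95 (95% counting interval 0.78 to 1.13), and for Scx it was 0.86 (0.58 to 1.16). One HFD cell of 40900 UMIs held 142 of the 990 Tnmd and 74 of the 355 Scx UMIs, with 0 Chad UMIs, and the median member had 0.965 Tnmd UMIs per 10000 in ND and 0.829 in HFD. Without that cell the HFD levels were 538 (Tnmd) and 178 (Scx) UPM. The log2 ratio was 0.19 for Chad (0.12 to 0.26), 0.03 for Fmod (-0.04 to 0.10), 0.36 for Mfap4 (0.23 to 0.49) and -0.62 for Nppc (-0.86 to -0.38). The lower Nppc lay in the Chad-led cells, where its log2 ratio was -0.72 (-0.99 to -0.44), against -0.03 (-0.55 to 0.51) in the cells rich in Tnmd, Scx and Mkx. This difference between the kinds of cells was not tested.

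Across the genome, 344 of 9526 genes with at least 20 UMIs in the members were 2-fold or more higher in HFD (3.61%) and 320 were 2-fold or more lower (3.36%), at a median log2 ratio of 0.07 over all of them. In 46 of the higher and 46 of the lower genes, 1 cell held at least 50% of the UMIs in the library where the gene was higher. Of the 344 higher genes, 233 were still past 2-fold, with at least 20 UMIs left, without the cell with most UMIs in each library, 215 without the members with blood-cell RNA, and 173 under both checks. Of the 320 lower genes the numbers were 179, 116 and 73. The checks left under 20 UMIs for 89 and 58 of the higher and for 101 and 143 of the lower genes. Among genes with at least 100 UMIs, 41 were higher and 56 lower, and 21 and 16 of them were past 2-fold under both checks.

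Mgp, which encodes matrix Gla protein, an inhibitor of mineralization, was the most abundant gene among those that stayed past 2-fold. It had 5576 UMIs in ND, in 93 of 94 members, and 18182 UMIs in HFD, in 146 of 148 members. The level was 4765 UPM in ND and 11250.3 in HFD, and the median member had 41.8 and 63.6 Mgp UMIs per 10000. The log2 ratio was 1.24 (1.20 to 1.28), 1.20 without the top cells and 1.13 without the members with blood-cell RNA. It was 1.57 in the cells rich in Tnmd, Scx and Mkx and 0.94 in the Chad-led cells. Mgp was also higher on HFD in the other fibroblast-like cells (1.20) but not in the osteoblast-like cells (-0.43). In B cell-like cells, where it stands for background, it was at 7.05 and 16.8 UPM.

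The next genes, also higher in HFD, were chosen after their values were seen. Tmem100, a membrane protein gene downstream of BMP signaling, had 234 UMIs in 58 ND members and 868 UMIs in 103 HFD members, 199.95 and 537 UPM, with a log2 ratio of 1.42 (1.22 to 1.64). In the other fibroblast-like cells its ratio was -0.01 (-0.13 to 0.12), and in the osteoblast-like cells 0.55 (0.13 to 1.01). Fn1, fibronectin, was at 267 and 1053 UPM, a log2 ratio of 1.97 (1.80 to 2.15), against -0.02 in the other fibroblast-like and 0.97 (0.87 to 1.07) in the osteoblast-like cells, but the median member had 0.933 UMIs per 10000 in ND and 0.946 in HFD, and 1 HFD cell held 408 of the 1701 UMIs. Kcnj2, an inward-rectifier potassium channel gene, had 29 UMIs in 13 ND and 146 UMIs in 44 HFD members, a log2 ratio of 1.85 (1.28 to 2.49), against -0.55 (-1.48 to 0.38) in the other fibroblast-like and 0.70 (-0.24 to 1.86) in the osteoblast-like cells. Prg4, encoding the lubricant lubricin, was at 833 and 1766 UPM, a log2 ratio of 1.08 (0.96 without the members with blood-cell RNA, below 2-fold). It was also higher on HFD in other fibroblast-like (1.46), osteoblast-like (1.98) and B cell-like cells (2.66), the last of which do not make it. H19 had a log2 ratio of 1.69 from 15 ND and 32 HFD members, and 2.93 in the other fibroblast-like cells. Without the members with blood-cell RNA the H19 ratio was 1.08. Angptl4, an inhibitor of lipoprotein lipase, gave 1.27 (0.76 to 1.84) and was also higher in the other fibroblast-like cells (1.23). The contrasts between the cell classes were not tested.

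Mt1, Mt2, Hmox1, Adm, Cnmd and Spon1 were lower in the HFD members. The metallothionein genes Mt1 and Mt2, whose products bind zinc and copper, were at 2760.0 and 1072 (Mt1) and at 1132 and 354 UPM (Mt2), log2 ratios of -1.36 (-1.45 to -1.28) and -1.68 (-1.82 to -1.54). The median member had 17.2 Mt1 UMIs per 10000 in ND and 4.64 in HFD. In the osteoblast-like cells the ratios were -1.11 and -1.30, in the other fibroblast-like cells -0.55 and -0.59, and in B cell-like cells -0.03 and 0.29. Hmox1, heme oxygenase 1, had 108 UMIs in 24 ND and 31 UMIs in 24 HFD members, a log2 ratio of -2.25 (-2.89 to -1.68). Without its top cells, 1 of which held 47 of the ND UMIs, the ratio was -1.58. It was -2.21 in the osteoblast-like, -0.09 in the other fibroblast-like and -1.92 in the B cell-like cells. Adm, encoding the vasodilator adrenomedullin, gave -1.49 (-2.07 to -0.95), against -0.13 (-0.42 to 0.15) in the other fibroblast-like, -0.21 in the osteoblast-like and -0.91 in the B cell-like cells. Cnmd gave -2.55 (-3.38 to -1.84), from 82 UMIs in 13 ND members and 19 UMIs in 9 HFD members. Spon1, the matrix protein spondin 1, gave -1.15 (-1.60 to -0.71), but 0.82 (0.16 to 1.56) in the other fibroblast-like cells. In the osteoblast-like cells Spon1 was at 71.6 UPM in ND and 35.8 in HFD.

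The 21 immediate-early and heat-shock genes, which dissociation can also induce, leaned to lower values in HFD. Of these, 19 had a ratio below 0 and 2 above it, with a median log2 ratio of -0.46 against 0.07 over all genes tested, and 3 were past 2-fold lower (Atf3, Hspa1a and Hspa1b), where 3.36% of all genes were. Atf3, a stress-induced transcription factor gene, was at 684 UPM in ND and 241 in HFD, a log2 ratio of -1.50 (-1.68 to -1.33). Hspa1a and Hspa1b, the inducible HSP70 genes, gave -1.23 and -1.34, but -0.76 and -0.96 without their top cells. Fos had a log2 ratio of -0.41 in the members, -0.28 in the other fibroblast-like cells and -1.01 in the B cell-like cells. Hspa1b gave -1.46 in the other fibroblast-like cells and -1.26 in the B cell-like cells. The same direction in blood cells of the same libraries is given as a measured value, and its part in the result was not tested.

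The collagen and proteoglycan lists include Col1a1, Col1a2, Col3a1, Dcn and Chad, which the selection used, so their counts are a description. Col1a1 was at 3659.8 UPM in ND and 2279 in HFD, and Col3a1 at 1409 and 879, log2 ratios of -0.68 for both, whereas both were slightly higher on HFD in the other fibroblast-like cells (0.10 and 0.22). Without the members with blood-cell RNA, the ratios were -0.50 (Col1a1) and -0.68 (Col3a1). Of 16 collagen genes tested, 10 were below 0 and 6 above, with a median of -0.16, and 2 were past 2-fold higher and 0 lower, beside 3.61% and 3.36% of all genes. These were Col11a2, with 2 UMIs in ND and 32 in HFD, and Col22a1, a collagen of muscle-tendon junctions, with 0 UMIs in ND and 90 in HFD, of which the cell richest in Tnmd held 64. Counting Col22a1 at a floor of 3 UMIs left the median at -0.16. Of 12 small leucine-rich proteoglycan genes, 11 were above 0 and 1 below, with a median of 0.16, and 0 were past 2-fold. The median over all genes tested was 0.07, and Fmod (0.03) and Dcn (0.08), counted as above 0, lay near it. Lum had the highest ratio, 0.86 (0.69 to 1.04), and Omd, osteomodulin, the lowest, -0.29.

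The remaining lists are set beside 3.61% of all genes past 2-fold higher and 3.36% lower. Among 7 tendon transcription factor genes the median was 0.38 and 0 passed 2-fold in either direction. Scx, the highest, and Mkx chose the members, and the median was 0.15 without the members with blood-cell RNA and -0.16, over 4 genes, with cells thinned to 2000 UMIs. Among 20 tendon glycoprotein genes 3 were higher (Prg4, Postn and Fn1) and 0 lower, at a median of 0.07. Among 6 natriuretic peptide signaling genes, only Ostn passed 2-fold, lower in HFD with a log2 ratio of -1.51, from 7 ND and 8 HFD members, with 18 of the 26 HFD UMIs in 1 cell, and 1.14 with the members chosen on Tnmd, Scx and Mkx. Among 16 TGF-beta and GDF genes 0 passed 2-fold, with Ccn2, the connective tissue growth factor gene, the highest at 0.92 (0.82 to 1.02), and in the other fibroblast-like cells it gave 0.89. Among 11 lipid genes Angptl4 was higher and Plin2, encoding a lipid droplet coat protein, was lower at -1.12. Plin2 gave 0.71 in the other fibroblast-like cells and -0.95 in the members without its top cells. The 12 genes of matrix turnover gave 1 higher (Mmp3) and 1 lower (Mmp9, a neutrophil enzyme with only 2 ND and 5 HFD UMIs left without the members with blood-cell RNA). The 13 cell cycle genes gave 1 higher (Mcm6) and 2 lower (Mki67 and Ccna2). Without the members with blood-cell RNA these gave 0.72 (Mcm6), 0.20 (Mki67) and -0.70 (Ccna2). The 9 ERK feedback genes gave 1 higher (Etv4, 1 UMI in ND and 24 in HFD). In collagen processing (21 genes), microfibrils (14), mechanosensing (8), receptors for nerve and vessel signals (8) and progenitor and tendon sheath genes (13), 0 passed 2-fold, with medians of 0.05, 0.21, -0.06, 0.16 and -0.01.

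**Figure D4:**
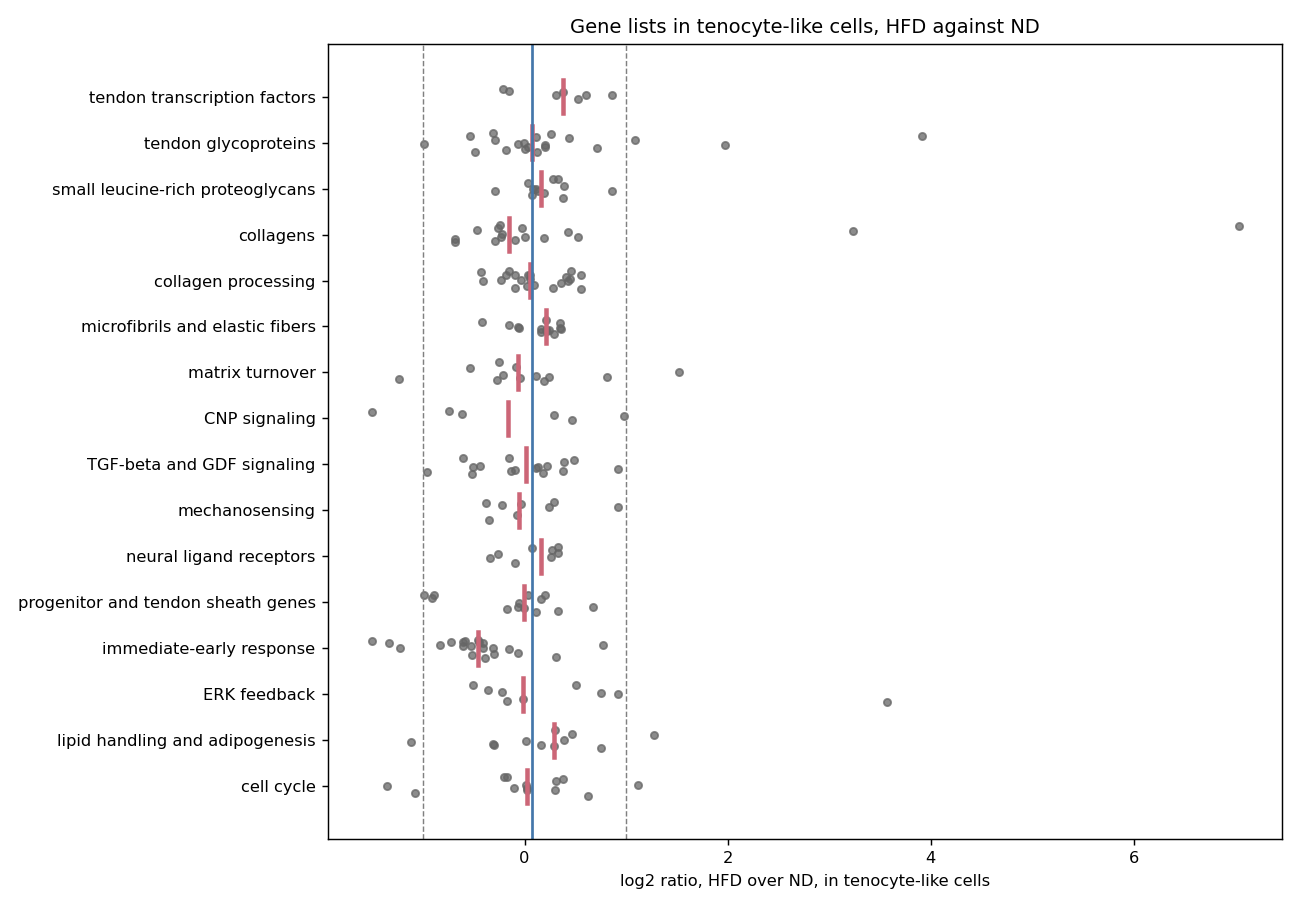
Log2 ratio of HFD over ND in tenocyte-like cells for each gene (grey points, at least 20 UMIs) of 16 gene lists, with the median of each list as a red bar. The blue line is the median of all genes tested (0.07) and dashed lines mark 2-fold. The immediate-early list lies furthest to the left, with a median of -0.46.

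Several of the largest ratios between diets, those of the red cell genes and Ifit1 among them, rested mostly on 1 cell. Of the 12 genes with the highest ratio, Car1, Car2, Hba-a1, Hba-a2, Hbb-bs and Hbb-bt are red cell genes, carbonic anhydrases and globins. All 107 Car1 UMIs of HFD, 663 of 709 Hba-a1 UMIs and 830 of 928 Hbb-bs UMIs were in 1 cell each, and the Hbb-bs log2 ratio of 4.02 was 0.82 without the members with blood-cell RNA. Hba-a1 and Hba-a2 gave 1.32 and 1.68 without their top cells and 1.06 and 1.23 without those members. Ifit1, an interferon-induced gene, had 113 of 125 HFD UMIs in 1 cell. Postn (periostin), Chodl, Ptx4 and Tagln (transgelin) had 377 of 572, 123 of 193, 81 of 120 and 71 of 125 HFD UMIs in 1 cell, the same cell that led Tnmd and Scx. Without their top cells the log2 ratios were 2.86 (Postn), 2.97 (Chodl), 1.59 (Ptx4) and 2.84 (Tagln). Of the 12 lowest, Chil3, Camp, Ngp, Ltf, Lcn2, Lyz2, Pglyrp1, Cybb and Wfdc17 are neutrophil or macrophage genes. Camp, encoding an antimicrobial peptide precursor, gave -2.67 over all members and 0.35 without those with blood-cell RNA, and Ngp and Ltf, 2 granule protein genes, went from -2.29 to 0.40 and from -2.24 to 0.07. Without its top cells Camp gave -3.50. Of these 9 genes, 4 were still past 2-fold lower without the members with blood-cell RNA, Lyz2 at -2.28, Wfdc17 at -3.60, Cybb at -1.35 and Lcn2 at -1.30, and Cnmd and Hmox1, also among the 12, at -2.74 and -2.36. Wfdc17 had 87 of its 131 ND UMIs in 1 cell, and without its top cells it gave -0.79, below 2-fold.

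**Figure D5:**
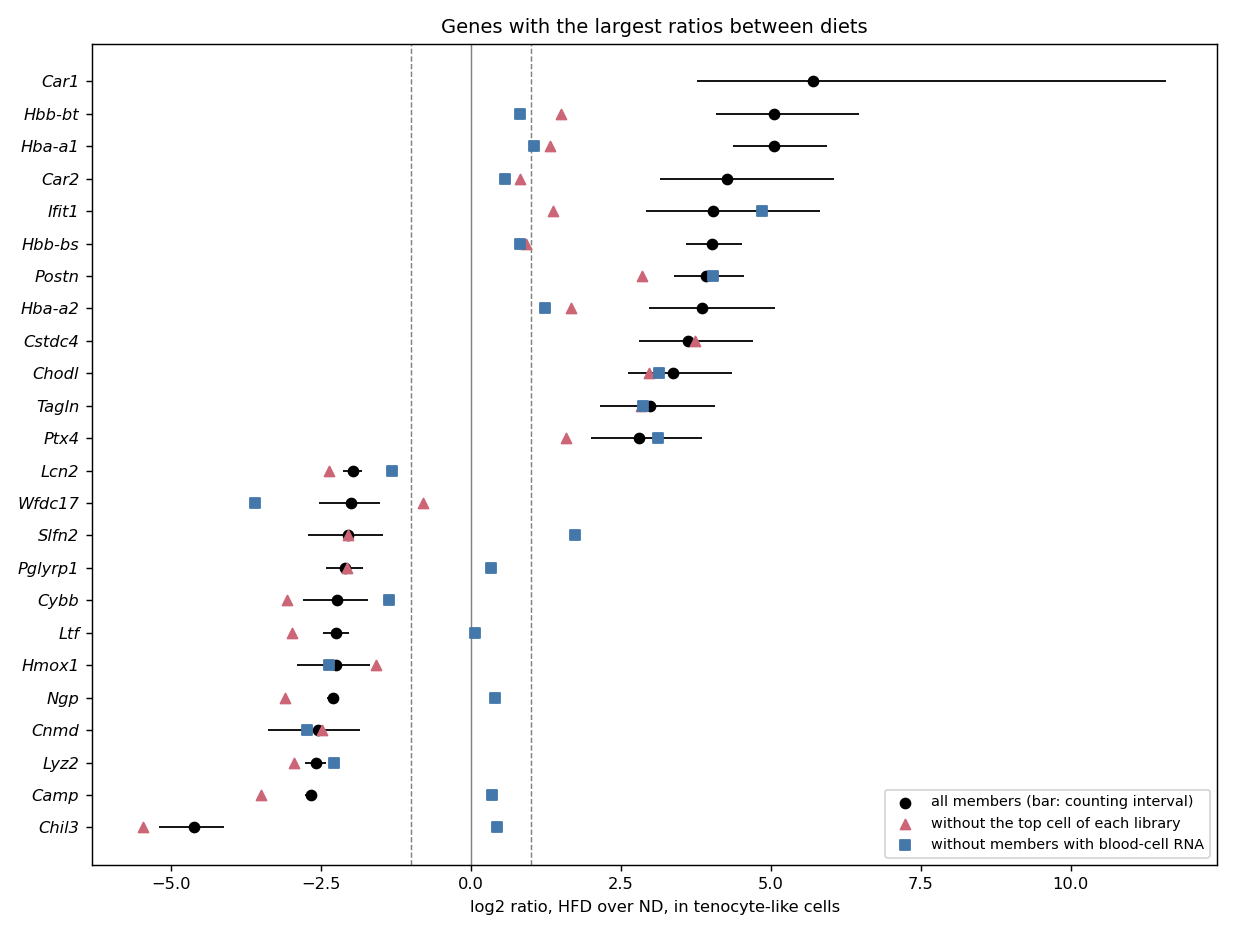
Log2 ratio of HFD over ND in tenocyte-like cells for the 12 highest and 12 lowest genes with at least 100 UMIs: all members (black, bars are 95% counting intervals), without the cell with most UMIs in each library (red triangles) and without members with 1% or more blood-cell RNA (blue squares). Dashed lines mark 2-fold. No point is drawn where both libraries had 3 or fewer UMIs left, as for Car1. The red cell genes move toward 0 under both checks, with Hba-a1 and Hba-a2 still past 2-fold, and the neutrophil granule genes Camp, Ngp and Ltf move past 0 under the second, while Cnmd, Postn, Chodl, Tagln and Ptx4 stay past 2-fold.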

How the data were processed

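The authors deposited raw UMI counts per gene and cell barcode, 1 matrix per diet, made with Cell Ranger 6.0.1 (matrix header and submitters' notes, which name the build mm10). Which gene annotation was used is not given in sources read here. The matrices list 32285 genes and hold barcodes already called as cells, with at least 500 (ND) and 501 (HFD) UMIs. No barcode names a mouse, so the mice of a diet were taken as 1 library and no test between diets was made.

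Filters on genes per cell and mitochondrial UMIs followed the paper's methods. The members and gene lists were chosen with earlier results of these data known. Counts were summed per class and library. Levels have exact Poisson intervals, shares exact Clopper-Pearson intervals (95%), and ratios exact conditional binomial intervals. Log2 ratios add 0.5 to each count, for genes with at least 20 UMIs. For 0 UMIs, 3 served as the upper limit. B cell-like cells had at least 5 Cd79a and Cd79b UMIs. Scrublet (scanpy 1.11.5) called 10 ND and 11 HFD doublets (0.166% and 0.177%), too few to have worked, and 0 were stromal. Named genes were all list members and markers, and, with at least 100 UMIs, the 20 highest and 10 lowest against other fibroblast-like cells and the 12 highest and 12 lowest between diets. Exceptions are the genes said to be chosen after their values were seen and those past 2-fold under both checks. The ratio script was tested on simulated data. Promoters came from RefSeq (GRCm38.p6). Scripts ran in Python 3.11.15 with scipy 1.17.1 for intervals, anndata 0.12.19 for matrices, pandas 2.3.3 and numpy 2.4.6 for sums, and matplotlib 3.10.9 for plots. One list of markers of another cell type is not reported here.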

Additional observations from a re-analysis of the deposited data

Results flagged for a closer look

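For 2 of the genes that led the diet comparison, the ratio in the tenocyte-like cells and in the other fibroblast-like cells of the same libraries had opposite directions, each past 2-fold. The difference was not tested. Cstdc4, a stefin gene of neutrophils, had a log2 ratio of HFD over ND of 3.61 in the tenocyte-like cells and -1.95 in the other fibroblast-like cells. The first rested on 194 HFD UMIs in 7 cells, of which 1 held 130, and without the members with blood-cell RNA 2 ND and 3 HFD UMIs were left. Tagln, which encodes the actin-binding protein transgelin, had a log2 ratio of 2.98 in the tenocyte-like cells and -2.95 in the other fibroblast-like cells. In the tenocyte-like cells 1 HFD cell held 71 of 125 UMIs, and in the other fibroblast-like cells 1 ND cell held 402 of 417 UMIs.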

How the results depend on the processing

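With 1 library per diet no replicate could be left out. No paired analysis was possible because the matrices pool the mice of a diet and carry no replicate numbers. The share of stromal cells (23.2% in ND, 22.0% in HFD) was 18.97% and 18.87% with at least 10 tendon UMIs, and 10.1% and 9.51% with at least 5 UMIs of Tnmd, Scx and Mkx. Genes past 2-fold between diets (344 higher, 320 lower) numbered 158 and 85 with cells thinned to 2000 UMIs, 41 and 56 with at least 100 UMIs, and 2413 and 2005 with at least 1 UMI. With ratios centred on their median, 271 were higher and 375 lower. Without cells with blood-cell RNA, an alternative chosen after seeing the data, 184 of 8852 genes were lower. Genes past 4-fold against other fibroblast-like cells (221 higher, 196 lower) numbered 44 and 128 with the members chosen on Tnmd, Scx and Mkx, and 64 and 123 after thinning. The higher ones numbered 80 with at least 100 UMIs and 498 with at least 1. Thinning and the UMI minimums also change how many genes are tested. Choosing on Tnmd, Scx and Mkx left 6919 genes tested. It also placed the Chad-led cells in the other fibroblast-like class, so that both sides of that comparison changed. Of 1240 ratios between diets of named genes over all alternatives, 1001 moved by less than their counting interval, 228 by more, and 11 from past 2-fold to the other sign. With the members chosen on Tnmd, Scx and Mkx these were Chil1 (-0.16), Mki67 (0.51) and Ostn (1.14). Without cells with blood-cell RNA, where some had under 20 UMIs, they were Camp (0.35), Chil3 (0.43), Ltf (0.068), Mki67 (0.20), Mmp9 (0.43), Ngp (0.40), Pglyrp1 (0.33) and Slfn2 (1.73). No ratio was taken where both libraries had 3 or fewer UMIs left, as for Car1 without its top cell or without those cells and Cstdc4 without those cells. List medians between diets had the other sign in 36 of 238 cases, each from a median of at most 0.38 in size. Depth limits the scarce genes most: Mkx had 126 UMIs in all members.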

Other observations

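The histone genes Hist1h2ap and Hist1h2ae were among the 20 genes highest in tenocyte-like against other fibroblast-like cells. Hist1h2ap had 467 UMIs in ND and 459 in HFD members, against 52 and 71 in the other fibroblast-like cells, and Hist1h2ae had 209 and 273 against 39 and 37. Single cells held 249 and 222 of the Hist1h2ap and 156 and 159 of the Hist1h2ae UMIs of the members. In B cell-like cells, Hist1h2ap was at 1607 and 1469 UMIs per 1000000. Of the 15 cell cycle genes, Mki67, a marker of dividing cells, had 43 UMIs in 6 ND members and 23 UMIs in 3 HFD members. Outside the filter on detected genes, 2 HFD barcodes and 0 ND barcodes met the rest of the rule.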
